A study of Mus musculus with 8 samples.

Results

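The 51 genes described here work in the last part of the cell cycle, from G2 through mitosis to the separation of the daughter cells. They were taken by gene name from a set list of cyclins, mitotic kinases, checkpoint, centromere and kinetochore proteins, spindle motors, condensin subunits and proliferation markers. The list was drawn up with earlier results of these data known. All 51 were found among the 37583 genes of the deposited mouse liver table, and 49 of them passed the filter on low values (at least 10 normalised counts in at least 2 libraries), as did 17011 genes in all. The 2 that did not were Cenpk and Ndc80.

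Entry into mitosis is driven by the kinase CDK1 with a cyclin B partner, and the ubiquitin ligase APC/C ends mitosis by having cyclin B and the separase inhibitor securin destroyed. Most genes of this set are switched on together in G2 by the MuvB complex with the transcription factors B-MYB and FOXM1, and the same MuvB complex with p130 and E2F4 keeps them silent in resting cells. Adult hepatocytes rarely divide, so transcripts of these genes are scarce in a normal adult liver.

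Liver RNA of C57BL6/CBA mice aged 8 months was sequenced in 8 libraries of 3 groups. The PR-SET7_LOBE group had 4 libraries of the genotype PR-SET7_LX_ALB_CRE, in which Pr-Set7 (Setd8), the enzyme that monomethylates histone H4 at lysine 20, is inactivated by a Cre recombinase under the albumin promoter, which is active in hepatocytes and their fetal precursors. The labels do not explain LOBE, and liver cells without Cre keep the gene. The DEN_WT group had 2 libraries of wild-type mice that received diethylnitrosamine (DEN), a chemical that causes liver tumours, by intraperitoneal injection at postnatal day 15, at a labelled 25 ml per kg without a stated concentration. The WT group had 2 libraries of untreated wild-type mice and served both other groups as the comparison. Whether the samples of a group are different animals is not stated, so each p-value sets a difference against a spread between samples that may be technical. In whole liver RNA, more dividing cells and more mitotic RNA per cell cannot be told apart.

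The deposited values are read counts divided by a factor for each library and rounded, and they are called normalised counts below. From the steps between the small values, the libraries held an estimated 5296000 to 11873000 reads in PR-SET7_LOBE, 27995000 and 26061000 in DEN_WT, and 6806000 and 11167000 in WT, so depth moved with the group. In the WT libraries 3 reads correspond to 6.07 and 4.33 normalised counts, and many WT values below lie at or under that level, where presence and absence cannot be told apart. PR-SET7_LOBE replicate 1 stood apart from its group. Its mean correlation across genes was 0.887 with the other PR-SET7_LOBE libraries and 0.919 with WT, and its deviations followed the GC content of the transcripts (r = 0.613 across genes, against -0.29 to 0.30 in the other 7 libraries). Setd8 itself had 667, 600, 516 and 510 normalised counts in PR-SET7_LOBE and 542 and 607 in WT (limma adjusted p = 0.992). These whole-gene values cannot check the genotype, since the deleted exons are not given, so PR-SET7_LOBE stands throughout for the libraries labelled so.

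Most of the mitotic genes were low in untreated liver, with 31 and 30 of the 51 members under 10 normalised counts in the WT libraries, and had higher values in both other groups. The median member had 18, 23, 48 and 30 normalised counts in the PR-SET7_LOBE libraries, 33 and 29 in the DEN_WT libraries, and 8 and 7 in the WT libraries. Both WT medians lay below all 6 others. Members listed at 0 numbered 2 in PR-SET7_LOBE replicate 1, 0 in each of the other PR-SET7_LOBE and DEN_WT libraries, and 9 and 7 in WT. The sum over all 51 was 1889, 2057, 2980 and 2178 in PR-SET7_LOBE, 2235 and 1927 in DEN_WT, and 1161 and 1704 in WT, so WT replicate 2 came close to the lowest libraries of both other groups. Most of the WT sums came from Spc24, Cenpf, Bub3, Pttg1 and Birc5, the 5 members with the highest WT means. Without those 5, which were chosen by their WT values so that a lower WT remainder is built in, the sum was 1329, 1324, 2459 and 1570 in PR-SET7_LOBE, 1712 and 1490 in DEN_WT, and 494 and 544 in WT.

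**Figure D1:**
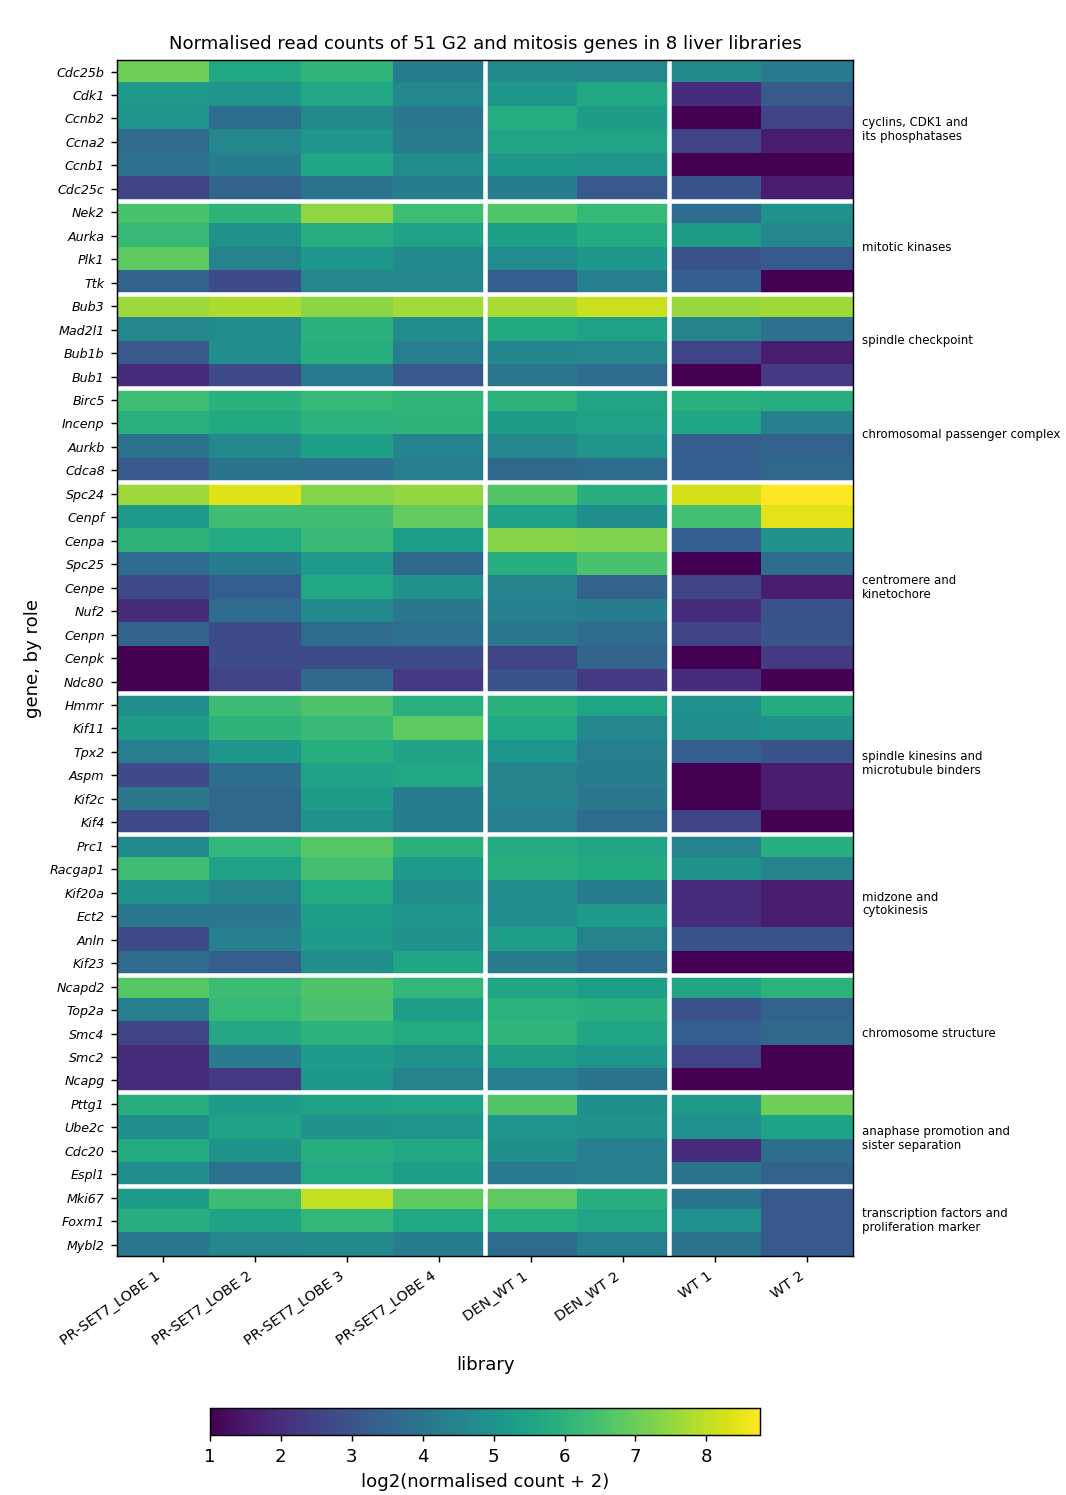
Normalised counts of all 51 members (rows, grouped by role, highest mean first within a role) in the 8 libraries (columns), coloured on the log2(normalised count + 2) scale. The WT columns are dark for most genes, with 9 and 7 members at 0, and bright for Spc24, Cenpf and Bub3, while PR-SET7_LOBE replicate 3 holds the highest of the 8 values for 25 members. That library also had the most genes of the table above 0 (26437), and the share of all genes highest there was not counted.

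Differences were tested with limma on log2(normalised count + 2), in 1 fit of all 8 libraries, with adjustment over all 17011 genes, and only genes at an adjusted p under 0.05 are called risen or fallen. Because many WT values are a few reads, the size of a log2 difference depends on the added 2 and is no bound on the true fold. In PR-SET7_LOBE against WT, 2 of the 49 tested members rose (Ccnb1 and Kif20a), where 0.594% of all tested genes rose, and 0 fell, where 0.182% of all did (0.776% changed in either direction). On simulated data the test gave somewhat too many false calls in this comparison. At an unadjusted p under 0.05, 26 members were higher, where 9.87% of all tested genes were, and 0 were lower, where 6.56% of all were. The members' median difference was 1.56, against 0.029 over all tested genes, 45 members had a difference above 0, and in 29 the groups did not overlap, where 11.1% of all tested genes were higher without overlap. No member was lower without overlap, as 10.3% of all tested genes were. In DEN_WT against WT, 12 members rose and 1 fell (Spc24), where 8.44% of all tested genes rose and 4.84% fell (13.3% changed). The median difference there was 1.70, against 0.16 over all tested genes, and 35 tested members were higher without overlap, which with 2 libraries a group also held for 39.7% of all tested genes. Both comparisons use the same WT libraries, so they are not independent of each other.

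**Figure D2:**
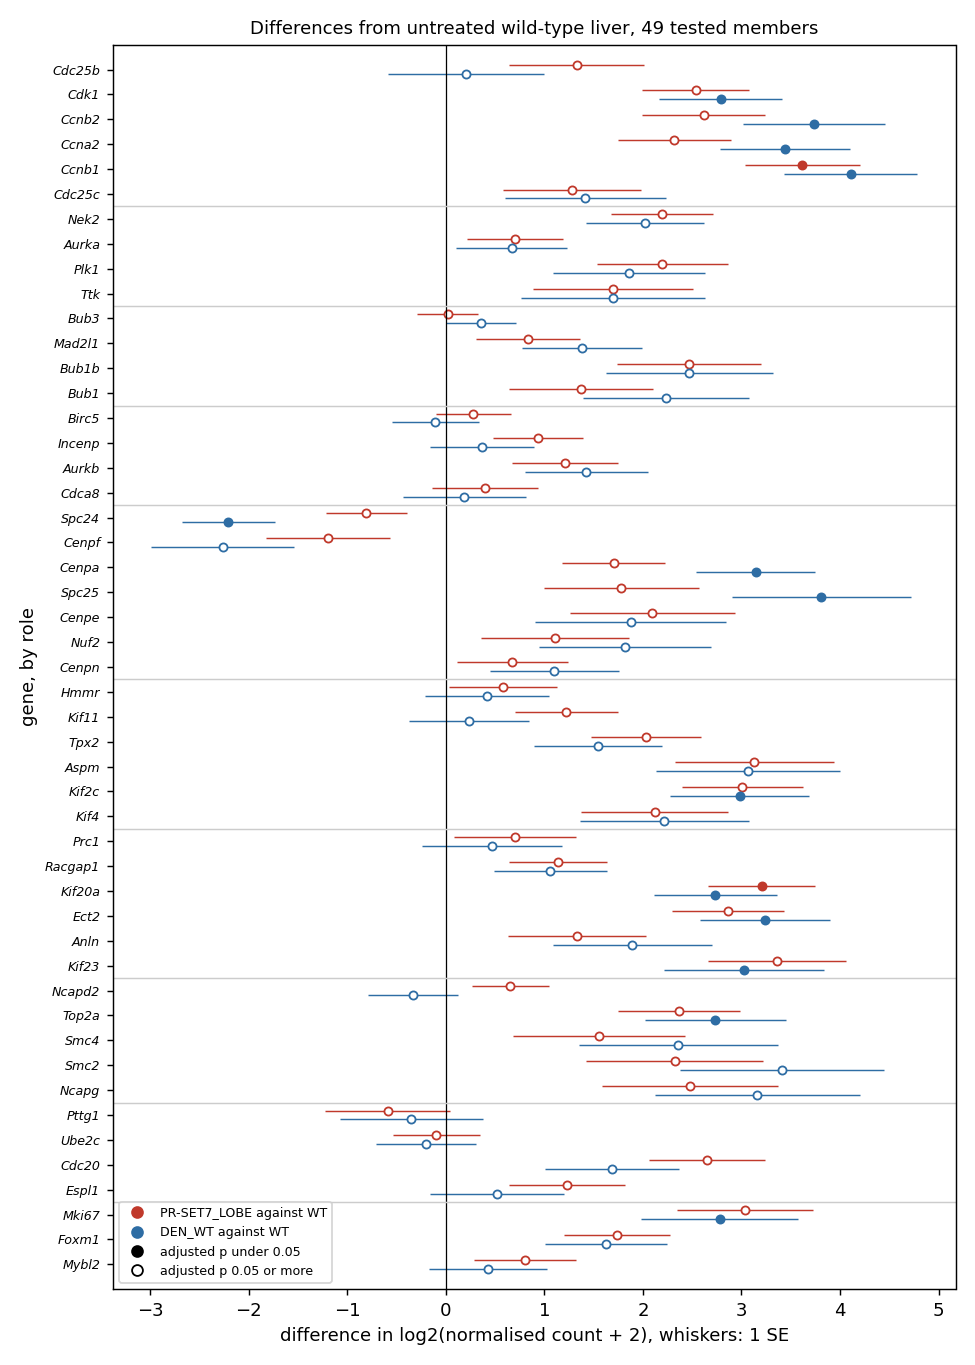
Differences from WT of the 49 tested members in log2(normalised count + 2), for PR-SET7_LOBE (red) and DEN_WT (blue), with 1 SE whiskers and filled points at an adjusted p under 0.05. Most points lie to the right of 0 in both comparisons (45 and 43 of 49), 2 red and 13 blue points are filled, and Spc24 and Cenpf lie furthest to the left.

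The calls rest on few libraries. In PR-SET7_LOBE against WT, 22 members rose without PR-SET7_LOBE replicate 1 (9.40% of all tested genes rose there) and 2 without replicate 4 (0.768%). Without replicate 2 or 3, 0 rose (0.16% and 0.292% of all tested genes did). Leaving out a WT or a DEN_WT library leaves 1 library in that group. Neither Ccnb1 nor Kif20a passed in those fits, where fewer of all tested genes rose too. In DEN_WT against WT, 13 members changed (13.3% of all tested genes did), against 23 without PR-SET7_LOBE replicate 1 (where 29.5% of all tested genes changed). Without either WT library or either DEN_WT library, fewer members and fewer of all tested genes changed. Of the 45 members above 0 in PR-SET7_LOBE, 43 were above 0 whichever library was left out, as were 38 of the 43 in DEN_WT.

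The members also share promoter letters that the list was not chosen by. Cell cycle genes of G2 and mitosis are known to carry a CHR element, which MuvB binds, and CCAAT boxes, which the factor NF-Y binds. RefSeq promoter windows of 250 bases before to 50 bases after the transcription start (build GRCm38.p6) were at hand for 42 of the 51 members. Searched on both strands, TTTGAA or TTCGAA (the CHR letters) stood in 33 of these 42 genes (78.6%), in 17.2% of the 10848 tested genes with a window and in 21.7% of all 27025 genes with one. CCAAT stood in 34 of 42 members (81.0%), in 42.9% of the tested genes and in 41.1% of all genes, and both motifs stood in 71.4%, 8.3% and 9.7% of them. A match is a description and not a bound site, and a window without the letters says nothing about the factor.

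The stretches below run from 120 bases before to 30 bases from the start and are given 5′ to 3′ on the gene's strand, with CHR and CCAAT letters, or their reverse complements TTCAAA and ATTGG, in capitals. Ccnb1, Cdk1 and Ccnb2 are shown as mitotic entry genes that passed the test in DEN_WT, Ube2c as a gene with both motifs that passed the test in neither group, and Cenpf as one with both motifs that was highest in WT. They lie at chr13:100786457-100786606 (Ccnb1, minus strand), chr10:69352883-69353032 (Cdk1, minus), chr9:70421525-70421674 (Ccnb2, minus), chr2:164769809-164769958 (Ube2c, plus) and chr1:189688057-189688206 (Cenpf, minus).
Ccnb1: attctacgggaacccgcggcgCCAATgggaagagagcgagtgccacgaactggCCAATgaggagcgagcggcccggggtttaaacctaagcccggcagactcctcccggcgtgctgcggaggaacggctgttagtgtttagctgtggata
Cdk1: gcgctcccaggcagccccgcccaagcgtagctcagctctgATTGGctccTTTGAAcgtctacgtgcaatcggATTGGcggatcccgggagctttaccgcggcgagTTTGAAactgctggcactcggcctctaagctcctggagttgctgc
Ccnb2: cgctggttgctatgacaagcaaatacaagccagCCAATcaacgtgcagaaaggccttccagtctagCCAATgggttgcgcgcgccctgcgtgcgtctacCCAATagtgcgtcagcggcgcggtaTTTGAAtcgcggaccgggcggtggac
Ube2c: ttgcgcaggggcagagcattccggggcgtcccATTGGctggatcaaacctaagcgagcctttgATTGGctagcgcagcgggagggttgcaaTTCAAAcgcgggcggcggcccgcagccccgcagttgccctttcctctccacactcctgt
Cenpf: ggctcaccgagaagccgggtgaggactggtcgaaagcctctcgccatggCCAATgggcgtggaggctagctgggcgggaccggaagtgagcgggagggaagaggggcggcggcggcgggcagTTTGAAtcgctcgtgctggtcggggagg
Cdk1 holds 2 CHR matches in this stretch, Ccnb2, Ube2c and Cenpf hold 1 each, and Ccnb1 holds 2 CCAAT boxes and no CHR letters. Of the 32 tested members with CHR letters, 0 rose in PR-SET7_LOBE (limma) and 9 rose in DEN_WT, with median differences of 1.70 and 1.87. Of the 8 tested members whose window lacked the letters, 1 rose in each comparison (Ccnb1), with medians of 0.97 and 1.60.

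The cyclins and CDK1 that carry a cell into mitosis were higher in both groups. In DEN_WT, 4 of the 6 genes of this role rose (Ccna2, Ccnb1, Ccnb2 and Cdk1), and in PR-SET7_LOBE Ccnb1 alone passed, with 4 of 6 at an unadjusted p under 0.05. Ccnb1, which encodes cyclin B1, the main partner of CDK1 (ENSMUSG00000041431, mm9 chromosome 13, 101548605 to 101556525), had 13, 17, 45 and 25 normalised counts in PR-SET7_LOBE, 33 and 32 in DEN_WT, and was listed at 0 in both WT libraries. No value of either group overlapped WT, and the limma adjusted p was 0.0276 for PR-SET7_LOBE and 0.00398 for DEN_WT. Ccnb1 has near-identical pseudogene copies (Ccnb1-ps, 99.2% identity over 1287 bases, and others), and how reads with several hits were counted is not given.

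Cdk1, the mitotic kinase itself (mm9 chromosome 10, 68799383 to 68815686), had 35, 31, 48 and 22 normalised counts in PR-SET7_LOBE, 33 and 47 in DEN_WT, and 2 and 7 in WT. The groups did not overlap WT. It rose in DEN_WT by 2.79 on the log2(value + 2) scale (SE 0.62, limma adjusted p = 0.0167), and the PR-SET7_LOBE difference of 2.54 (SE 0.54) did not pass (limma adjusted p = 0.0713). Ccnb2, encoding cyclin B2, had 31, 12, 24 and 15 normalised counts in PR-SET7_LOBE, 54 and 36 in DEN_WT, and 0 and 4 in WT. Ccna2, encoding cyclin A2, which acts in S phase and G2, had 11, 22, 32 and 17 in PR-SET7_LOBE, 44 and 44 in DEN_WT, and 4 and 1 in WT. In both genes DEN_WT was highest, PR-SET7_LOBE intermediate and WT lowest, with no overlap between any of the 3 groups. The differences from WT were 3.74 for Ccnb2 (SE 0.72, limma adjusted p = 0.00815) and 3.44 for Ccna2 (SE 0.66, limma adjusted p = 0.00787) in DEN_WT, and 2.62 (SE 0.62, limma adjusted p = 0.0948) and 2.32 (SE 0.57, limma adjusted p = 0.103) in PR-SET7_LOBE. Ccna2 overlaps Exosc9 on the other strand. The CDK1-activating phosphatase genes Cdc25b and Cdc25c did not pass. Cdc25b ranged from 17 to 130 normalised counts in PR-SET7_LOBE, from 22 to 24 in DEN_WT and from 16 to 24 in WT, and Cdc25c had 4 to 17 in PR-SET7_LOBE, 7 and 17 in DEN_WT, and 1 and 6 in WT.

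None of the 4 mitotic kinase genes passed the test against WT, although all 4 lay above 0 in both comparisons and 2 of them, Nek2 and Plk1, reached an unadjusted p under 0.05 in each. Nek2, whose kinase separates the centrosomes, had 90, 64, 176 and 79 normalised counts in PR-SET7_LOBE, 98 and 72 in DEN_WT, and 12 and 30 in WT. Every value of both groups was above WT, with differences of 2.19 in PR-SET7_LOBE (SE 0.52, limma adjusted p = 0.0939) and 2.02 in DEN_WT (SE 0.60, limma adjusted p = 0.0507). Plk1, which acts at centrosomes, kinetochores and the midzone, had 112, 20, 33 and 24 in PR-SET7_LOBE, 25 and 33 in DEN_WT, and 6 and 7 in WT. Its PR-SET7_LOBE libraries differed 5.60-fold among themselves, with replicate 1 alone above 100, and the adjusted p was 0.165 in PR-SET7_LOBE and 0.136 in DEN_WT (limma). Ttk, the checkpoint kinase MPS1, had 9, 5, 22 and 22 in PR-SET7_LOBE, 8 and 19 in DEN_WT, and 8 and 0 in WT, with overlapping groups. Aurka, the spindle pole kinase Aurora A, spanned 29 to 73 in PR-SET7_LOBE, 40 to 53 in DEN_WT and 22 to 36 in WT.

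The spindle checkpoint holds back anaphase until every chromosome is attached, and its 4 genes did not move alike. None passed, and at an unadjusted p under 0.05 there was 1 in PR-SET7_LOBE and 3 in DEN_WT. Bub1b, encoding BUBR1, had 7, 26, 58 and 18 normalised counts in PR-SET7_LOBE, 21 and 22 in DEN_WT, and 4 and 1 in WT, above WT in every library. Its difference was 2.47 in both groups (SE 0.73 in PR-SET7_LOBE and 0.85 in DEN_WT, limma adjusted p = 0.158 and 0.0819). Bub1, the kinase that recruits BUBR1, had 2, 5, 16 and 7 in PR-SET7_LOBE, 15 and 11 in DEN_WT, and 0 and 3 in WT. Mad2l1, encoding MAD2, had 22, 25, 61 and 25 in PR-SET7_LOBE, 50 and 41 in DEN_WT, and 20 and 13 in WT, with 3 PR-SET7_LOBE libraries within 5 normalised counts of WT replicate 1. Bub3, whose protein also works outside mitosis, was at 169 to 222 in PR-SET7_LOBE, 218 to 281 in DEN_WT and 188 to 199 in WT, and lies within a span annotated to Fgfr2 on the other strand.

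The chromosomal passenger complex, which corrects wrong attachments and then guides cytokinesis, has 4 genes in the set. None of them passed in either comparison, and Aurkb was the only one at an unadjusted p under 0.05 in DEN_WT and in PR-SET7_LOBE. Aurkb, the kinase subunit Aurora B, had 13, 23, 40 and 20 normalised counts in PR-SET7_LOBE, 22 and 31 in DEN_WT, and 8 and 9 in WT. Its values in both groups lay above WT (differences of 1.21, SE 0.54, limma adjusted p = 0.300, and 1.42, SE 0.62, limma adjusted p = 0.156). Birc5, the survivin subunit, had 82, 60, 72 and 66 in PR-SET7_LOBE, 63 and 44 in DEN_WT, and 59 and 55 in WT. Incenp, the scaffold, had 59, 50, 63 and 64 in PR-SET7_LOBE, 37 and 41 in DEN_WT, and 46 and 19 in WT. For Birc5 and Incenp the PR-SET7_LOBE values lay above WT without passing (limma adjusted p = 0.733 and 0.333), and the DEN_WT values overlapped WT. Cdca8, the borealin subunit, was between 7 and 18 in all libraries.

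At the centromere and kinetochore the members moved in opposite directions. In DEN_WT, 2 of the 7 tested genes rose (Cenpa and Spc25) and 1 fell (Spc24), while in PR-SET7_LOBE none passed and 3 were higher at an unadjusted p under 0.05. Cenpa, the histone H3 variant that marks centromeres (mm9 chromosome 5, 30969150 to 30977200), had 64, 53, 75 and 39 normalised counts in PR-SET7_LOBE, 161 and 151 in DEN_WT, and 8 and 30 in WT. The 3 groups did not overlap. It rose in DEN_WT by 3.14 (SE 0.60, limma adjusted p = 0.00796), and the PR-SET7_LOBE difference was 1.70 (SE 0.52, limma adjusted p = 0.169).

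Spc25 and Spc24 encode partner subunits of the NDC80 complex, which binds microtubules at the outer kinetochore, and their transcripts went apart. Spc25 (mm9 chromosome 2, 69031952 to 69044251) had 11, 17, 35 and 10 normalised counts in PR-SET7_LOBE, 58 and 90 in DEN_WT, and 0 and 12 in WT. It rose in DEN_WT by 3.81 (SE 0.91, limma adjusted p = 0.0222), while PR-SET7_LOBE overlapped WT. Spc24 (mm9 chromosome 9, 21559886 to 21564733) had 194, 333, 156 and 178 in PR-SET7_LOBE, 101 and 58 in DEN_WT, and 303 and 431 in WT. In DEN_WT it fell by 2.21 (SE 0.47, limma adjusted p = 0.0135), with both DEN_WT values below all others, and in PR-SET7_LOBE the difference was -0.81 (SE 0.41, limma adjusted p = 0.347), with replicate 2 above WT replicate 1. Per kilobase of exon, Spc24 averaged 83.7 normalised counts in PR-SET7_LOBE, 30.9 in DEN_WT and 143 in WT, the highest level of the 51 members in WT. The median member per kilobase was at 6.37 in PR-SET7_LOBE, 6.17 in DEN_WT and 1.52 in WT.

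Cenpf, a large protein of the outer kinetochore in mitosis, had 35, 82, 82 and 118 normalised counts in PR-SET7_LOBE, 42 and 27 in DEN_WT, and 83 and 345 in WT. The WT libraries differed more from each other than WT replicate 1 did from PR-SET7_LOBE, and the differences of -1.20 in PR-SET7_LOBE (SE 0.63, limma adjusted p = 0.360) and -2.27 in DEN_WT (SE 0.72, limma adjusted p = 0.0652) did not pass. The DEN_WT difference did pass with a correction for GC content (-3.14, limma adjusted p = 0.00565), with the replicate block, without PR-SET7_LOBE replicate 1 (limma adjusted p = 0.0229) and without WT replicate 1, and not under the other alternatives. Cenpe, a kinetochore motor, was at 5 to 48 in PR-SET7_LOBE, 9 and 20 in DEN_WT, and 1 and 4 in WT, above WT in every library. Nuf2, another subunit of the NDC80 complex, was at 2 to 23 in PR-SET7_LOBE, 17 and 19 in DEN_WT, and 2 and 6 in WT. Cenpn, which reads CENP-A nucleosomes, was at 5 to 13 in PR-SET7_LOBE, 11 and 15 in DEN_WT, and 4 and 6 in WT. Both overlapped WT in PR-SET7_LOBE and lay above it in DEN_WT without passing (limma adjusted p = 0.188 and 0.279). Ndc80 reached at most 10 and Cenpk at most 9, both too low to be tested.

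Among spindle motors and microtubule binders 1 of 6 genes rose in DEN_WT (Kif2c) and none in PR-SET7_LOBE. In PR-SET7_LOBE 5 of 6 were higher at an unadjusted p under 0.05 and 5 were higher without overlap (9.87% and 11.1% of all tested genes were). Kif2c, the microtubule depolymerase MCAK (mm9 chromosome 4, 116832244 to 116855244), had 15, 10, 37 and 17 normalised counts in PR-SET7_LOBE, 20 and 15 in DEN_WT, and 0 and 1 in WT. All 6 values lay well above WT, and the gene passed in DEN_WT (2.98, SE 0.71, limma adjusted p = 0.0213) and missed in PR-SET7_LOBE (3.01, SE 0.61, limma adjusted p = 0.0582). Aspm, which organises spindle poles, had 5, 12, 42 and 47 in PR-SET7_LOBE, 20 and 17 in DEN_WT, and 0 and 1 in WT. Kif4, the chromosome-bound kinesin KIF4A, had 5, 10, 30 and 17 in PR-SET7_LOBE, 18 and 11 in DEN_WT, and 4 and 0 in WT. In both genes PR-SET7_LOBE replicate 1 was the lowest of its group, within 5 normalised counts of the higher WT library, and the limma adjusted p values for Aspm were 0.113 in PR-SET7_LOBE and 0.0555 in DEN_WT, and for Kif4 they were 0.211 and 0.115. Kif11, the motor that pushes spindle poles apart, was at 37 to 111 in PR-SET7_LOBE, 22 and 48 in DEN_WT, and 26 and 29 in WT. Tpx2, which activates Aurora A, was at 18 to 57 in PR-SET7_LOBE, 18 and 32 in DEN_WT, and 6 and 8 in WT. Hmmr, a spindle assembly factor, overlapped WT in both groups, at 27 to 94 in PR-SET7_LOBE, 44 and 62 in DEN_WT, and 28 and 53 in WT.

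Of the 6 genes of the spindle midzone and of cytokinesis, 1 rose in PR-SET7_LOBE and 3 in DEN_WT. Higher than WT without overlap were 4 and 5 of them, as were 11.1% and 39.7% of all tested genes. Kif20a, a kinesin needed for cleavage (mm9 chromosome 18, 34784278 to 34792919), had 29, 20, 51 and 27 normalised counts in PR-SET7_LOBE, 26 and 17 in DEN_WT, and 2 and 1 in WT, about 1 read in each WT library. It rose in PR-SET7_LOBE by 3.21 (SE 0.54, limma adjusted p = 0.0331) and in DEN_WT by 2.74 (SE 0.63, limma adjusted p = 0.0183). Kif20a shares 979 transcript bases with Cdc23 on the other strand, so part of its value may be reads of Cdc23, and this was not tested. Ect2, the exchange factor that switches on RhoA at the cleavage furrow, had 15, 15, 39 and 32 in PR-SET7_LOBE, 26 and 36 in DEN_WT, and 2 and 1 in WT. Kif23, the centralspindlin motor, had 11, 8, 27 and 45 in PR-SET7_LOBE, 17 and 12 in DEN_WT, and was listed at 0 in both WT libraries. Neither gene overlapped WT. Both rose in DEN_WT (limma adjusted p = 0.0110 for Ect2 and 0.0344 for Kif23) and missed in PR-SET7_LOBE (limma adjusted p = 0.0554 and 0.0659). Racgap1, the partner of Kif23, was at 34 to 85 in PR-SET7_LOBE, 50 and 57 in DEN_WT, and 20 and 30 in WT. Prc1, which bundles midzone microtubules, was at 24 to 104 in PR-SET7_LOBE, 44 and 53 in DEN_WT, and 20 and 58 in WT. Anln, the furrow scaffold anillin, was at 5 to 34 in PR-SET7_LOBE, 20 and 38 in DEN_WT, and 6 and 6 in WT. Of these 3 genes, Racgap1 alone was clear of WT in both groups.

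**Figure D3:**
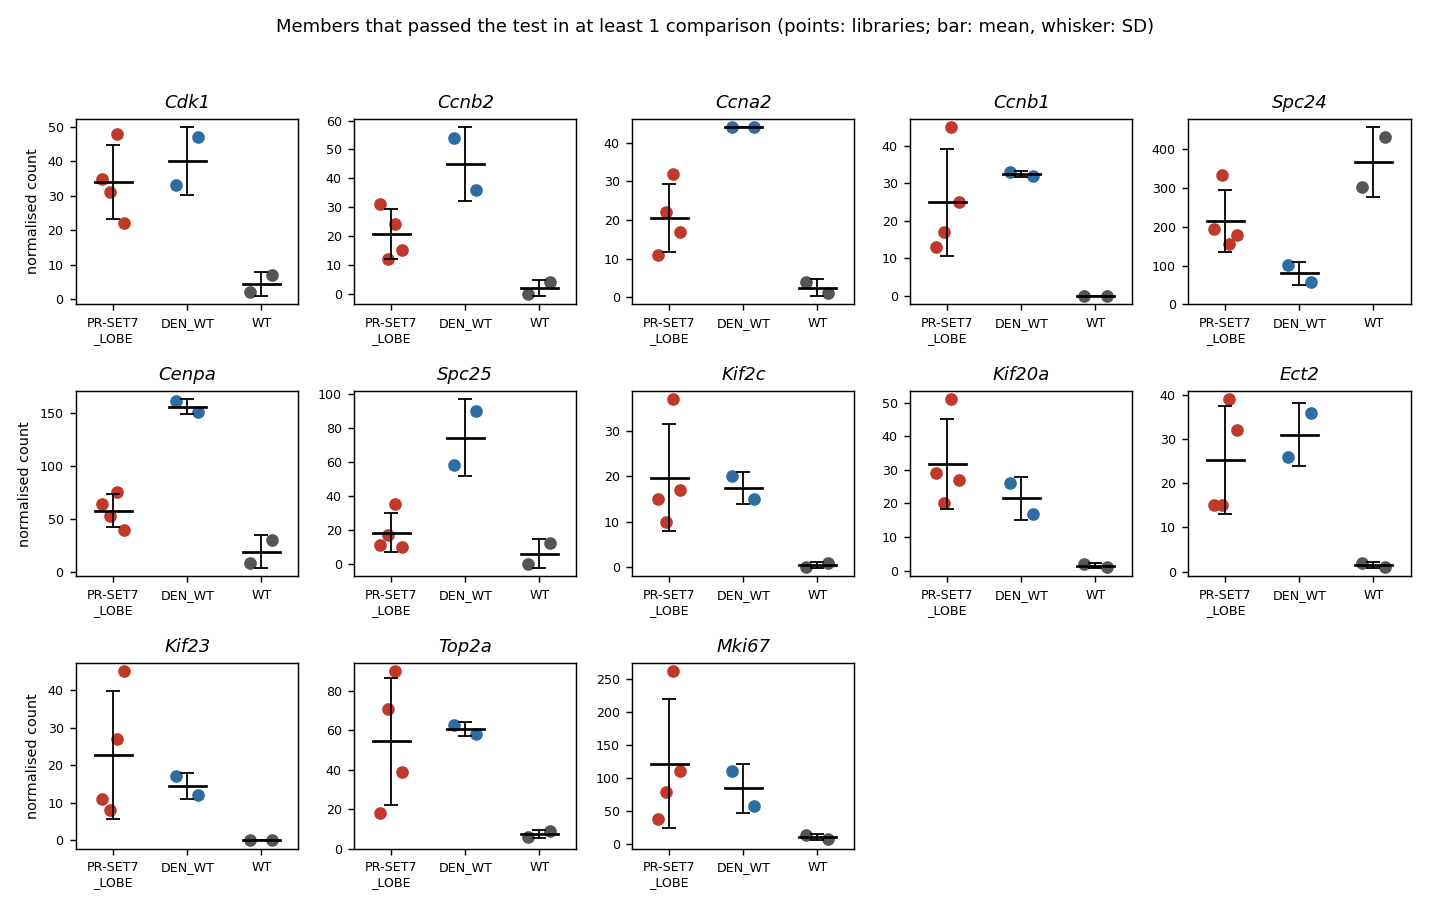
Normalised counts of the 13 members that passed in at least 1 comparison, each point 1 library, with the group mean as a bar and the SD as a whisker (PR-SET7_LOBE n = 4, DEN_WT n = 2, WT n = 2). In 12 genes WT has the lowest mean and no value above 30 normalised counts, and in Spc24 it has the highest mean, from values of 303 and 431.

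Of the 5 genes of chromosome structure, Top2a rose in DEN_WT and none passed in PR-SET7_LOBE, with 4 and 3 at an unadjusted p under 0.05. Top2a, the topoisomerase that untangles sister chromatids (mm9 chromosome 11, 98854257 to 98885503), had 18, 71, 90 and 39 normalised counts in PR-SET7_LOBE, 63 and 58 in DEN_WT, and 6 and 9 in WT. No library of either group overlapped WT, and the differences were 2.37 in PR-SET7_LOBE (SE 0.62, limma adjusted p = 0.118) and 2.73 in DEN_WT (SE 0.72, limma adjusted p = 0.0317). Smc2, a core condensin subunit, had 2, 16, 37 and 30 in PR-SET7_LOBE, 39 and 31 in DEN_WT, and 4 and 0 in WT. Ncapg, a subunit of condensin I, had 2, 3, 33 and 20 in PR-SET7_LOBE, 18 and 14 in DEN_WT, and was listed at 0 in both WT libraries. Smc4, the partner of Smc2, had 4, 49, 63 and 52 in PR-SET7_LOBE, 65 and 45 in DEN_WT, and 8 and 10 in WT. In these 3 condensin genes PR-SET7_LOBE replicate 1 was within 5 normalised counts of the lower WT library, while the other PR-SET7_LOBE libraries, apart from replicate 2 in Ncapg, were higher. Ncapd2, also of condensin I, was at 69 to 106 in PR-SET7_LOBE, 39 and 46 in DEN_WT, and 46 and 63 in WT.

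Of the 4 genes that promote anaphase, none passed, and Cdc20 alone reached an unadjusted p under 0.05 in either comparison. Cdc20, which activates the APC/C, had 53, 30, 55 and 47 normalised counts in PR-SET7_LOBE, 27 and 18 in DEN_WT, and 2 and 12 in WT, with no overlap between the 3 groups. The differences from WT were 2.65 in PR-SET7_LOBE (SE 0.59, limma adjusted p = 0.0807) and 1.69 in DEN_WT (SE 0.68, limma adjusted p = 0.129). Espl1, the separase that cuts cohesin, had 26, 13, 52 and 39 in PR-SET7_LOBE, 16 and 18 in DEN_WT, and 14 and 9 in WT. Pttg1, its inhibitor securin, had 55, 36, 42 and 44 in PR-SET7_LOBE, 99 and 27 in DEN_WT, and 34 and 130 in WT, so that the spread within WT and within DEN_WT was wider than any difference between groups. Ube2c, the ubiquitin-conjugating enzyme of the APC/C, was at 27 to 42 in PR-SET7_LOBE, 29 and 31 in DEN_WT, and 28 and 43 in WT. It overlaps Tnnc2 on the other strand.

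Mki67, the proliferation marker Ki-67 (mm9 chromosome 7, 142881471 to 142908062), had 37, 78, 262 and 111 normalised counts in PR-SET7_LOBE, 111 and 58 in DEN_WT, and 14 and 7 in WT. It was above WT in all 6 libraries and rose in DEN_WT by 2.78 (SE 0.80, limma adjusted p = 0.0449), while the PR-SET7_LOBE difference of 3.03 (SE 0.69) did not pass (limma adjusted p = 0.0846). The PR-SET7_LOBE libraries differed 7.08-fold among themselves. Foxm1, the transcription factor of G2 genes, had 57, 42, 68 and 47 in PR-SET7_LOBE, 54 and 44 in DEN_WT, and 28 and 7 in WT. Mybl2, encoding B-MYB, had 15, 22, 23 and 17 in PR-SET7_LOBE, 11 and 18 in DEN_WT, and 14 and 7 in WT. Foxm1 did not overlap WT in either group (limma adjusted p = 0.170 and 0.112), and Mybl2 overlapped it in DEN_WT.

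Set against DEN_WT directly, PR-SET7_LOBE had a median difference of 0.032 over the 49 members and of -0.040 over all tested genes. Spc24 rose, by 1.40 (SE 0.41, limma adjusted p = 0.0476), and 0 members fell, with 2 higher (Spc24 and Ncapd2) and 2 lower (Cenpa and Spc25) at an unadjusted p under 0.05. Over all tested genes 5.26% rose and 7.75% fell, 13% in all. PR-SET7_LOBE lay above DEN_WT without overlap in Cdc20, Incenp, Spc24 and Ncapd2 and below it without overlap in Ccna2, Ccnb2, Cenpa and Spc25, that is in 4 and 4 members, where 16.6% and 23.6% of all tested genes did so. The lower ones differed by -1.12 for Ccna2 (SE 0.57, limma adjusted p = 0.239), -1.12 for Ccnb2 (SE 0.62, limma adjusted p = 0.284), -1.44 for Cenpa (SE 0.52, limma adjusted p = 0.101) and -2.03 for Spc25 (SE 0.79, limma adjusted p = 0.125). The call of Spc24 was lost when either WT library, either DEN_WT library or PR-SET7_LOBE replicate 2 or 4 was left out.

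The PR-SET7_LOBE libraries differed widely among themselves in these genes. Replicate 3 was the highest of the group in 33 of the 51 members and replicate 1 the lowest in 28. The same counts were not made over all genes. Replicate 3 also had the most genes of the table above 0, and replicate 1 the fewest of its group (26437 and 18681). Tested members above both WT libraries numbered 34, 41, 44 and 43 of 49 in PR-SET7_LOBE replicates 1, 2, 3 and 4 (33.4% to 43.2% of all tested genes were) and 38 in each DEN_WT library (44.6% and 44.9% of all tested genes). The median GC content of the transcripts was 46.6% in the members and 49.7% in all tested genes, and replicate 1 was the library whose deviations followed GC content most. With a correction for GC content, 9 members rose in PR-SET7_LOBE against WT (1.43% of all tested genes did so with it), namely Ccnb1, Cdc20, Cdk1, Ect2, Kif20a, Kif23, Kif2c, Mki67 and Nek2. Without replicate 1, 22 members rose, among them Mki67 (3.48, SE 0.56, limma adjusted p = 0.0124), Top2a (2.79, SE 0.45, limma adjusted p = 0.0124), Smc4 (2.36, SE 0.39, limma adjusted p = 0.0129) and Aspm (3.67, SE 0.65, limma adjusted p = 0.0150), and 2822 of 16912 genes passed in all.

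**Figure D4:**
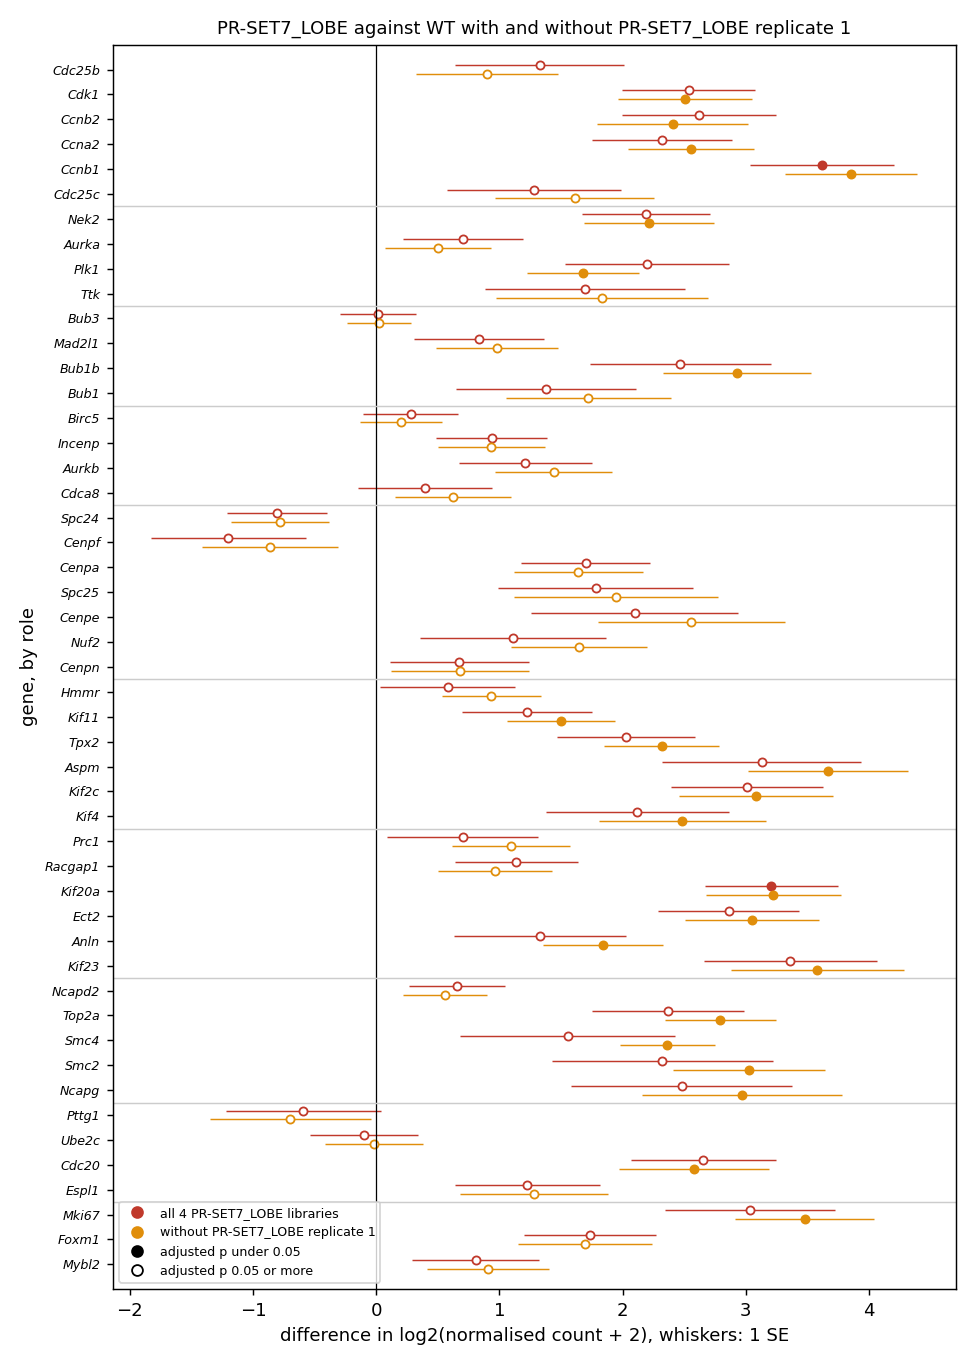
Differences of PR-SET7_LOBE from WT in log2(normalised count + 2) for the 49 tested members, with all 4 PR-SET7_LOBE libraries (red) and without replicate 1 (orange), whiskers 1 SE, filled points at an adjusted p under 0.05. The estimates move little for most genes, and the filled points number 2 with all libraries and 22 without replicate 1.

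Other genes of mitosis were counted as a further list. It too was chosen with earlier results of these data known, so it is no independent support for the members. Of 75 listed genes 66 were tested, and 3 rose in PR-SET7_LOBE against WT (4.5%, against 0.594% of all tested genes) and 8 in DEN_WT against WT (12.1%, against 8.44%), with median differences of 1.44 and 1.61. In PR-SET7_LOBE 0 fell (limma, 0 also at an unadjusted p under 0.05). In DEN_WT 1 fell, and 7 were lower at an unadjusted p under 0.05 and 8 without overlap (11.6% and 31.3% of all tested genes were). Those that rose were Arhgap11a, Psrc1 and Iqgap3 in PR-SET7_LOBE, and Ckap2, Nusap1, Pbk, Cdkn3, Arhgap11a, Psrc1, Iqgap3 and Mastl in DEN_WT. Psrc1, a spindle protein and a known p53 target, had 75, 130, 30 and 49 normalised counts in PR-SET7_LOBE, 156 and 328 in DEN_WT, and 4 and 1 in WT. Ckap2, a spindle microtubule protein, had 16, 18, 33 and 12 in PR-SET7_LOBE, 42 and 38 in DEN_WT, and 2 and 1 in WT, and rose in DEN_WT (3.60, SE 0.63, limma adjusted p = 0.00528). Nsl1, a subunit of the MIS12 complex to which SPC24 and SPC25 bind, had 134, 292, 174 and 118 in PR-SET7_LOBE, 21 and 25 in DEN_WT, and 265 and 264 in WT. Like Spc24 it fell in DEN_WT (by 3.42, SE 0.48, limma adjusted p = 0.00186), and it was higher in PR-SET7_LOBE than in DEN_WT (2.77, SE 0.42, limma adjusted p = 0.00184).

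The core subunits of the APC/C, which cells make throughout the cycle, were counted as well. Of 13 tested, 0 passed in PR-SET7_LOBE (limma, 0 also at an unadjusted p under 0.05) and 1 rose in DEN_WT (Cdc27, 7.7% of them, against 8.44% of all tested genes), with median differences of 0.0046 and 0.54. Among 17 regulators of late cell cycle transcription (MuvB subunits, pocket proteins, E2F and NF-Y factors, p53 and p21), only Cdkn1a passed in PR-SET7_LOBE, and only Cdkn1a in DEN_WT. That is 5.9% risen in each, against 0.594% of all tested genes in PR-SET7_LOBE and 8.44% in DEN_WT. Cdkn1a, which encodes the CDK inhibitor p21, had 597, 400, 236 and 912 normalised counts in PR-SET7_LOBE, 401 and 677 in DEN_WT, and 12 and 26 in WT. It rose by 4.59 in PR-SET7_LOBE (SE 0.54, limma adjusted p = 0.00667) and by 4.72 in DEN_WT (SE 0.62, limma adjusted p = 0.00132). The inhibitor, like most of the mitotic genes, was thus higher in both groups than in WT. The order of single libraries was not the same. PR-SET7_LOBE replicate 3 had the highest sum over the 51 members (2980) and the lowest Cdkn1a value of its group (236).

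Markers of the cell types that liver holds were summed beside the mitotic genes. For the counts below, 0.594% of all tested genes rose and 0.182% fell in PR-SET7_LOBE, and 8.44% rose and 4.84% fell in DEN_WT. At an unadjusted p under 0.05, 9.87% were higher and 6.56% lower in PR-SET7_LOBE, and 18.6% and 11.6% in DEN_WT. All 10 hepatocyte markers were detected in every library, and their sum was 539429 to 1765008 normalised counts in PR-SET7_LOBE, 1472816 and 1853626 in DEN_WT, and 1183209 and 1612074 in WT. In PR-SET7_LOBE 0 of them passed (limma), but 8 had a difference from WT below 0 and 2 above. There 6 were lower without overlap and 0 higher (10.3% and 11.1% of all tested genes were). At an unadjusted p under 0.05, 4 were lower there (6.56% of all tested genes were). In DEN_WT Ass1 fell (limma adjusted p = 0.0197) and 0 rose. Without overlap 5 were lower and 2 higher there, as were 31.3% and 39.7% of all tested genes. The 10 ductal and progenitor markers summed to 1385 to 3178 in PR-SET7_LOBE, 5051 and 8545 in DEN_WT, and 438 and 713 in WT, mostly through Spp1, and 1 of 9 tested rose in PR-SET7_LOBE (Spp1) and 3 in DEN_WT (Spp1, Cd24a and Prom1). At an unadjusted p under 0.05, 5 of the 9 were higher in each comparison (9.87% and 18.6% of all tested genes were). Higher than WT without overlap were 4 in PR-SET7_LOBE and 5 in DEN_WT, as were 11.1% and 39.7% of all tested genes. In DEN_WT 1 was lower without overlap, as were 31.3% of all tested genes. Sox9 was at 186 to 519 in PR-SET7_LOBE, 126 and 137 in DEN_WT, and 38 and 79 in WT, and Cldn4 was at 16 to 26, 17 and 18, and 2 and 10 in these groups. Krt19 and Krt7, which define bile duct cells, overlapped WT in PR-SET7_LOBE, with 10 to 55 and 12 to 42 normalised counts against 22 and 32, and 20 and 39, in WT. The T and NK cell sum was 150 to 207 in PR-SET7_LOBE, 43 and 48 in DEN_WT, and 173 and 178 in WT. Cd3d made up most of it in WT and in PR-SET7_LOBE replicate 1, with 146 and 147 in WT and 147 in that library, against 44 to 71 in the other PR-SET7_LOBE libraries and 3 and 4 in DEN_WT, while Cd3g was listed at 0 in both WT libraries and at 4 to 13 in PR-SET7_LOBE. The B and plasma cell sum was 2468 to 9158 in PR-SET7_LOBE, 3746 and 4379 in DEN_WT, and 5739 and 12795 in WT. Nearly all of it was Sdc1, so the sum does not show the other markers. In PR-SET7_LOBE 5 of the 7 tested had a difference from WT above 0 and 2 below. Without overlap 4 were higher and 1 lower there (11.1% and 10.3% of all tested genes were). Cd79b was at 25 to 35 in PR-SET7_LOBE, 4 and 3 in DEN_WT, and 2 and 6 in WT. Cd22 was at 129 to 259, 26 and 11, and 275 and 336 in these groups. In each lymphocyte list 0 of 7 tested markers rose in either comparison with WT (limma). At an unadjusted p under 0.05, 4 of each list were higher in PR-SET7_LOBE and 1 of each in DEN_WT. Cd3d and Cd22 fell in DEN_WT. Stellate cell markers summed to 2182 to 2783 in PR-SET7_LOBE, 2572 and 4163 in DEN_WT, and 1153 and 1710 in WT, and of 10 tested 0 rose in PR-SET7_LOBE (limma, 2 higher at an unadjusted p under 0.05) and 2 in DEN_WT (Acta2 and Lum). The macrophage sum was 3836 to 9497 in PR-SET7_LOBE, 2636 and 3987 in DEN_WT, and 3733 and 9508 in WT. Its 10 markers did not move alike. Itgam fell in DEN_WT (limma adjusted p = 0.0286), with 53 and 21 normalised counts against 103 and 309 in WT, and 0 passed in PR-SET7_LOBE. Lyz2 was at 787 to 2670 in PR-SET7_LOBE, 979 and 580 in DEN_WT, and 530 and 384 in WT. The sum of neutrophil markers was 108 to 412 in PR-SET7_LOBE, 116 and 214 in DEN_WT, and 120 and 723 in WT. Prtn3 made up most of it in WT replicate 1 (667), PR-SET7_LOBE replicate 1 (346) and DEN_WT (157 and 95). Of 7 tested, 0 passed in either comparison with WT (limma), with 3 higher in PR-SET7_LOBE at an unadjusted p under 0.05. In each comparison with WT 5 had a difference above 0 and 2 below. Endothelial markers summed to 2072 to 2750 in PR-SET7_LOBE, 2985 and 3029 in DEN_WT, and 2597 and 3163 in WT, and erythroid markers to 2058 to 7633, 5216 and 7353, and 11076 and 15749 in these groups. The part of any of these cells in the mitotic values was not tested.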

How the data were processed

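Poly(A) RNA of mouse liver was made into 8 libraries with an Ion Torrent kit and read on an Ion Proton, per the labels' protocols. The submitters' processing notes name TopHat2 2.0.9, Cufflinks, DESeq and the mm9 genome build. How reads were counted, and the strand setting and multiple hits with it, is not given in the sources used here. The deposited signal values are whole numbers, but their small values skip or double at a step of their own in each library (0.362 to 2.02 normalised counts a read), so they are read counts that the authors divided by a factor per library and rounded. A count model was therefore replaced by limma 3.58.1 (R 4.3.3, trend and robust variance) on log2(value + 2), without further scaling, on genes with at least 10 in at least 2 libraries, with 1 fit of the 3 groups and Benjamini-Hochberg adjustment at 0.05. The step estimate was checked on simulated data, where it failed in 1 case, of 6 tried: steps at which each whole number is reached by equally many reads cannot be told from each other. The test, checked likewise, recovered known changes and gave somewhat too many false calls in PR-SET7_LOBE against WT. The steps are less certain in DEN_WT, where single reads round to 0.

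Members, roles and lists were chosen with earlier results of these data known. Values in every library are given for up to 3 members a role with the smallest adjusted p, plus Mki67, Cdk1, Ccnb1 and Top2a, and Smc4 was added after its values were seen. Gene coordinates are those of the deposited mm9 table. Exon length, GC content and near-identical copies (blastn 2.17.0) came from GENCODE M21 by gene ID, without its coordinates, and GC content was matched for 96.5% of tested genes. Promoter sequences are RefSeq's. Reads carry no molecular identifiers, so read floors cover counting error only. Alternatives covered scaling, filters, the samples in the fit, a replicate block, GC content, each library left out and, chosen after seeing the data, the added constant.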

Additional observations from a re-analysis of the deposited data

Results flagged for a closer look

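In the PR-SET7_LOBE group of 4 libraries, each of the 51 members was screened for a library far from the other 3 (Dixon's test at its 95% critical value), which chance alone meets in about 1 in 20 groups, and 3 members met it. Plk1 had 112 normalised counts in replicate 1, against 20 to 33 in the other PR-SET7_LOBE libraries (ratio 0.859). Mad2l1 had 61 in replicate 3, against 22 to 25 in the others (ratio 0.923). Cenpk was listed at 0 in replicate 1 and at 5 in each of the others (ratio 1.0), a difference of about the 3-read level of 5.50 normalised counts in that library.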

How the results depend on the processing

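The number of members that changed in PR-SET7_LOBE against WT (2) was 4 after scaling to the total without the 20 most abundant genes, 6 without a filter, 0 with a strict filter of 50 normalised counts, 0 in a fit of only these groups, 9 with the GC correction (1.88% of all tested genes, against 0.776%), 5 with 1 added in place of 2, 0 with 8 added, and 0 to 22 with each library left out. In DEN_WT against WT (13) it was 5 with the strict filter, 26 in a fit of only these groups (where 39.1% of all tested genes changed, against 13.3%), and 0 to 23 with each library left out. In PR-SET7_LOBE against DEN_WT (1) it was 0 without a filter, in a fit of only these groups and with 8 added, and 0 to 1 with each library left out. The GC correction also left 1 there, Kif11 in place of Spc24. The strict filter left 22 members to test and removed both Ccnb1 and Kif20a, so it did not test their calls. The cause of these changes was not tested, beyond the fewer genes or libraries that some settings use. With the replicate block the counts were 1, 20 and 2, where 1.49%, 21.5% and 18.8% of all tested genes changed. PR-SET7_LOBE replicates 3 and 4 have no same-numbered library in the other groups. The block therefore takes them up, and the PR-SET7_LOBE differences rest on replicates 1 and 2 (for Mki67 against WT 2.22, in place of 3.03). Whether equal numbers mark paired samples could not be settled. A group of 2 libraries has mirror-image deviations, so correlations with WT or DEN_WT cannot decide it. For equal numbers, r was 0.158 and 0.125 for PR-SET7_LOBE with WT, and 0.061 for DEN_WT with WT. For PR-SET7_LOBE with DEN_WT it was -0.011 and 0.022. The total scaling moved the median of all tested genes by 0.547 in PR-SET7_LOBE and 0.411 in DEN_WT against WT, and upper-quartile scaling moved it by 0.165 in PR-SET7_LOBE. Median-of-ratios and upper-quartile scaling left every count within 1.5 times its value. Of the 49 members' differences from WT, those that changed sign, none of them past the threshold before or after, were the following. With the total scaling, the values were 0.46 for Ube2c in PR-SET7_LOBE, and 0.24 for Ube2c, 0.34 for Birc5, 0.10 for Pttg1 and 0.12 for Ncapd2 in DEN_WT, and with upper-quartile scaling 0.071 for Ube2c in PR-SET7_LOBE. With the GC correction they were -0.10 for Bub3 and 0.041 for Ube2c in PR-SET7_LOBE, and -0.79 for Kif11, -0.66 for Hmmr, -0.40 for Prc1, -0.012 for Cdca8 and 0.17 for Ube2c in DEN_WT. With each library left out, the range in PR-SET7_LOBE was -0.042 to 0.088 for Bub3, -0.023 to 1.42 for Prc1, -1.53 to 0.35 for Pttg1 and -0.39 to 0.19 for Ube2c. In DEN_WT it was -0.36 to 0.14 for Birc5, -0.058 to 0.47 for Cdc25b, -0.020 to 0.85 for Hmmr, -0.23 to 0.96 for Incenp, -0.30 to 0.76 for Kif11, -0.25 to 1.19 for Prc1, -1.29 to 0.59 for Pttg1 and -0.49 to 0.092 for Ube2c. Over these alternatives the adjusted p ran from 0.0100 to 0.212 for Ccnb1 and from 0.0139 to 0.290 for Kif20a in PR-SET7_LOBE, and from 0.00149 to 0.0634 for Ccnb1 in DEN_WT. DESeq2 was not run, because the deposited values are not counts, and the strict filter was set on normalised counts in place of CPM. With 1 of the 2 WT or DEN_WT libraries left out, the remaining one was assumed to vary like the other groups. Depth limits low values in PR-SET7_LOBE replicates 1 and 4, where 3 reads are 5.50 and 5.04 normalised counts, and in WT, where they are 6.07 and 4.33.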
